A study of Ovis aries with 91 samples.

Results

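A small group of 13 genes was higher in the left than in the right atrial appendage when isolated cardiomyocytes were sequenced. When the whole tissue of the appendages was sequenced, their mean left minus right differences were at most 0.14 on a log2 scale, and above 0 for 5 of the 13. The 13 were chosen from 12663 genes listed in both tables by the values themselves, after 4 IDs named in the rule were left out. The left minus right difference, taken within each sheep on the log2 CPM scale (the log of a gene's reads relative to the size of its library), had to lie above 0 in all 9 sheep of the cardiomyocyte table and average 0.5 or more. In whole tissue its mean had to be 0.15 or less. The mean level had to be 1 or more in both tables, and the change with pacing had to stay under 0.8 in both. Of the 12663 genes, 529 were higher on the left in all 9 cardiomyocyte sheep, 183 of these reached the mean of 0.5, 20 of those stayed within the limit in tissue, 16 of these passed the level and 13 the limit on pacing. A further 91 genes met every condition except the limit in tissue and serve here as the comparison, with left-higher levels in cardiomyocytes and a tissue mean above that limit.

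The left and right atria form from different parts of the embryonic heart field, and their cardiomyocytes keep side-specific gene programmes into adult life. A piece of atrial wall also holds fibroblasts, endothelial and mural cells, immune cells and fat, each with its own expression, so a level in whole tissue is a mixture over cell types. Isolation enriches for the contracting muscle cells before RNA is extracted. Atrial fibrillation, an arrhythmia in which the atria beat rapidly and without order, is often studied in sheep because the size of the heart and its electrical behaviour resemble those of humans.

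RNA came from sheep labelled control or sham, transition and chronic, in which fibrillation was brought about by a tachypacing device placed in the right atrium, and the series title places these states along the progression of the disease. The control groups joined sheep S3 and S4, labelled sham, with sheep C1, labelled control, and each state held 3 sheep per table in both appendages. The cardiomyocyte table has C1, S3 and S4 as controls, D23, D24 and D27 in transition and D16, D19 and D20 as chronic, while the tissue table has the same controls, D24, D27 and D30 in transition and D15, D16 and D19 as chronic, so that 7 sheep are in both. The posterior left atrium, the wall around the pulmonary veins, was sampled from 6 sheep in the control state and 6 in transition (5 of these 12 are in the appendage tables too), and the transition sheep with G numbers carry the word saline in their titles. Strain, age, sex and the length of pacing are not stated in the labels used here, nor is what the sham sheep received.

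Cardiomyocyte libraries held 7.16e+06 to 1.24e+07 listed reads on the left and 5.31e+06 to 1.11e+07 on the right, and the left library was the deeper in 8 of 9 sheep. Whole tissue libraries held 6.24e+06 to 2.24e+07, and the depth of the posterior left atrium values is unknown. The tables give gene IDs without names, and 0 of 13803 IDs matched a named gene in the reference table, so what these 13 genes encode is not known here and the purity of the isolated cardiomyocytes could not be checked against marker genes. In bulk samples such as these, fewer cells of a type and less RNA per cell cannot be told apart. The p-values given set each change against the variation among the samples of these sheep, as estimated by the fitted model.

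In cardiomyocytes the 13 genes had mean left minus right differences of 0.52 to 0.92 on the log2 scale, that is 1.43-fold to 1.90-fold higher levels on the left, with a median of 0.57. These values chose the genes and are given as a description. The 91 comparison genes had a median of 0.71. The SD of the difference over the 9 sheep was 0.25 to 0.75 and lay above the median over all genes, 0.31, in 11 of the 13. This SD had a median of 0.43 over the 13 and 0.34 over the 91 comparison genes. All 13 passed limma's threshold for higher levels on the left, beside 11.7% of all genes tested, a count that the rule fixed and from which nothing is read. The choice was a narrow one: the lowest difference in any sheep among the 13 was 0.02, where the nearest gene outside had -0.02, and the smallest mean was 0.52 where the nearest outside had 0.50. In tissue the highest mean among the 13 was 0.14 and the nearest gene above the limit had 0.17.

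The widest mean difference belonged to ENSOARG00000002951, one of the low-level genes of the group. Its left cardiomyocyte levels were 4.13, 3.72 and 3.57 log2 CPM in control sheep C1, S3 and S4, 2.94, 2.52 and 1.51 in transition sheep D23, D24 and D27, and 3.33, 3.01 and 2.64 in chronic sheep D16, D19 and D20. On the right the levels, in the same order of sheep, were 2.0, 2.32 and 1.78, then 2.70, 1.19 and 1.29, then 2.67, 2.92 and 2.18. The 3 control sheep had the highest left levels, while on the right they lay within the range of the paced sheep. The left minus right difference averaged 0.92 ± 0.75 (SD, n = 9). The levels of both sides overlapped once sheep were pooled, as they did for each of the 13 genes. This overlap was not counted over all genes, so nothing is read from it.

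ENSOARG00000020825 came next and was an abundant gene. Its left cardiomyocyte levels were 6.90, 6.0 and 6.66 log2 CPM in C1, S3 and S4, 7.50, 6.27 and 6.96 in D23, D24 and D27, and 6.55, 6.45 and 6.10 in D16, D19 and D20. Its right levels were 5.79, 5.81 and 5.04, then 6.01, 5.74 and 6.79, then 6.17, 5.83 and 4.61 in the same order. The difference averaged 0.85 ± 0.59 (SD, n = 9) and was wide in S4 (1.63), D23 (1.49), D20 (1.49) and C1 (1.11) and narrow in D27 (0.17) and S3 (0.19), so that control and transition sheep were among both the widest and the narrowest. The most abundant member was ENSOARG00000012075, with a mean level of 6.25 and a difference of 0.55 ± 0.44 (SD, n = 9) that ranged from 0.05 in D24 to 1.08 in S4.

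Levels fell into a lower and an upper set. Of the 13 genes 6 had a mean cardiomyocyte level below 3 log2 CPM, with 6 to 282 reads per library, and the other 7 lay above 4, with 56 to 1712 reads. The lower set held 5 of the 6 widest mean differences, and ENSOARG00000020825 had the other. For the lower set a difference in one sheep can rest on few reads.

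The sheep differed in how far apart the sides were. The median difference over the 13 genes was 1.02 in control sheep S4 and 0.85 in chronic sheep D19, and 0.26 in transition sheep D27. With each of the 11 sheep of both tables left out in turn, the rule chose 11 to 23 genes. Without D24 it chose 23, among them all 13. Without D19 it chose 15, of which 6 were among the 13.

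**Figure D1:**
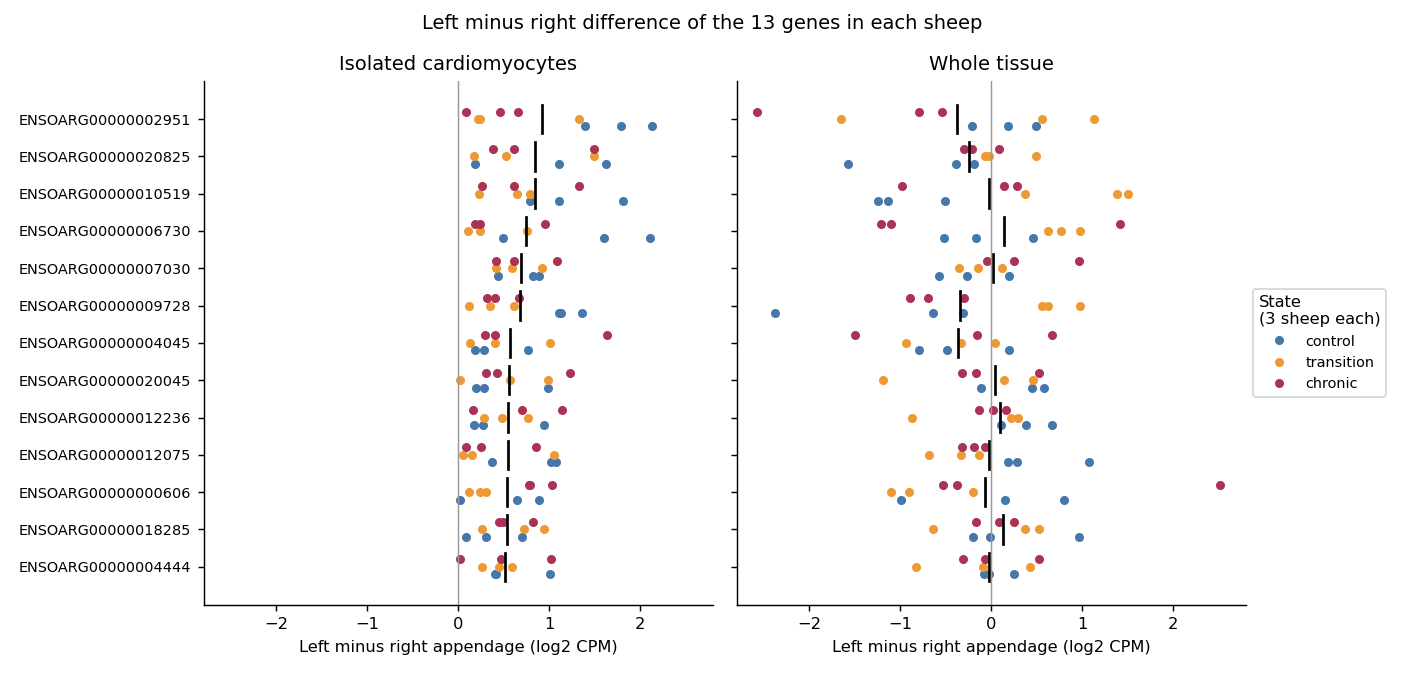
Left minus right difference in log2 CPM (x axis) of each of the 13 genes (rows) in each sheep, in isolated cardiomyocytes (left panel) and whole tissue (right panel); points are sheep coloured by state, and the black bar is the mean of 9 sheep. All cardiomyocyte points lie above 0, as the rule requires, while the tissue points of every gene lie on both sides of 0.

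In whole tissue the left was the higher side in 52 of 117 pairs of sheep and gene, against 730 of 819 for the 91 comparison genes, which the cap on the tissue mean separates from the 13. The mean difference over 9 sheep was below 0 for 8 of the 13 genes and above 0 for 5, from -0.37 to 0.14, with a median of -0.02. The SD of this difference had a median of 0.47 over the 91 comparison genes and 0.57 over the 13. For the 13 it was 0.41 to 1.17, above the median over all genes, 0.35, in 13 of 13. With a spread of this width, a mean near 0 does not show that the sides were equal. None of the 13 passed limma's threshold for a difference between the sides in tissue (0 at an unadjusted p under 0.05, where all genes gave 23.4%), beside 8.59% of all genes; the rule had capped this mean.

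A mean near 0 in tissue covered sheep with wide differences of opposite sign. ENSOARG00000002951 had the lowest mean, -0.37 ± 1.17 (SD, n = 9), with differences of 0.50, -0.21 and 0.19 in C1, S3 and S4, 1.14, 0.56 and -1.65 in D24, D27 and D30, and -2.57, -0.54 and -0.79 in D15, D16 and D19. The 3 chronic sheep were all lower on the left. ENSOARG00000004045 had nearly the same mean, -0.37 ± 0.65 (SD, n = 9), and was lower on the left in 6 of 9 sheep, down to -1.50 in D19. At the other end ENSOARG00000006730 averaged 0.14 ± 0.93 (SD, n = 9), with 1.42 in D16 and -1.21 in D19, both chronic. ENSOARG00000018285 averaged 0.13 ± 0.47 (SD, n = 9), from -0.63 in D27 to 0.97 in S3.

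Single sheep carried much of this. In D19 the left was the higher side for 0 of the 13 genes, with a median difference of -0.31, and in D27 for 4 of 13, with a median of -0.63. In D30 it was higher for 10 of 13, with a median of 0.37. Over all genes the median difference in these 3 sheep lay between -0.01 and 0.01, and for the 91 comparison genes it was 0.46 in D19, 0.50 in D27 and 0.61 in D30.

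Because the tables share only some animals, the 7 sheep with both kinds of sample were set side by side. Over them the 13 genes had a median mean difference of 0.57 in cardiomyocytes and -0.09 in tissue, where the means ran from -0.45 to 0.20 and 12 of 13 stayed at or below 0.15. The tissue difference was below the cardiomyocyte difference of the same sheep in 75 of 91 pairs of sheep and gene. These sheep are among those whose values chose the genes, so the gap restates the rule and is given as a description.

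The same values can be read as the level in tissue minus that in cardiomyocytes, side by side. The rule makes this gap lower on the left than on the right, so the levels are a description and nothing is read from that order. In the left appendage the gap had a median of 0.0071 over the 13 genes and 0.34 over all genes. In the right appendage the medians were 0.75 and 0.36. The 91 comparison genes had medians of 0.22 on the left and 0.33 on the right. Over sheep the median of the 13 genes ran from -0.33 to 0.55 on the left and from 0.40 to 1.26 on the right. The tables were normalised separately, so these gaps between tables have no test.

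Among single genes ENSOARG00000020825 had a tissue minus cardiomyocyte difference of -0.22 ± 0.37 (SD, n = 7) on the left and 0.83 ± 0.61 on the right. ENSOARG00000012075 was the gene above the median of all genes on the left, at 0.48 ± 0.27, and had 0.98 ± 0.56 on the right. ENSOARG00000006730 was below the median of all genes on both sides, at -1.17 ± 1.27 on the left and -0.45 ± 0.81 on the right.

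**Figure D2:**
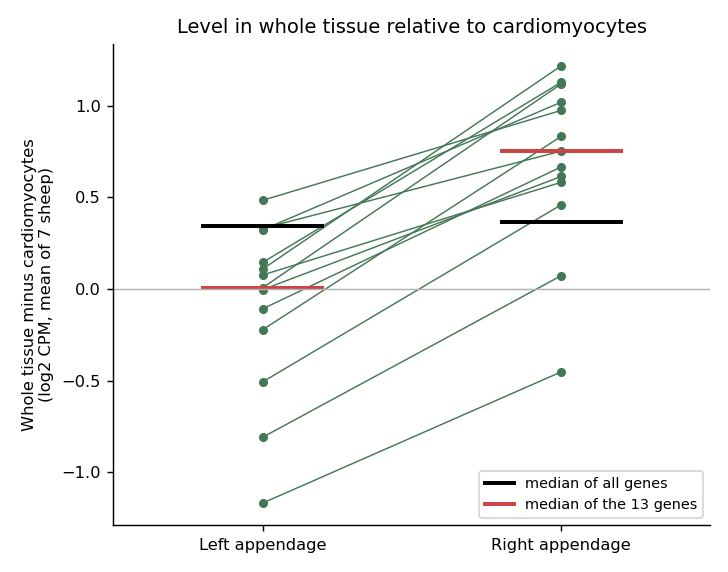
Level in whole tissue minus level in isolated cardiomyocytes (log2 CPM, y axis) in the left and right appendage (x axis); each line is 1 of the 13 genes, as the mean of the 7 sheep with both samples, and bars are medians of the 13 genes (red) and of all genes (black). The 13 genes have a median of 0.0071 on the left and 0.75 on the right, while the medians of all genes are 0.34 and 0.36.

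The scaling of the libraries also differed by side in both cardiomyocytes and tissue, and their depth did so in cardiomyocytes. The factors by which the authors scaled the libraries were 0.828 to 1.14 over all 36 appendage libraries, with a median of 0.966 in left and 1.02 in right cardiomyocytes. In tissue the factors were 0.828 to 1.03 on the left and 0.928 to 1.14 on the right. With plain library totals in place of these factors the left minus right difference of all genes moved by a median of -0.08 in cardiomyocytes and -0.12 in tissue. On that scale the 13 genes kept means of 0.43 to 0.84 in cardiomyocytes, 8 of them were above 0 in all 9 sheep, and all 13 stayed within the limit in tissue. On it the tissue minus cardiomyocyte medians were 0.0016 on the left and 0.80 on the right.

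The next question was whether the difference between the sides varied with the state of the sheep. The rule asks only that each cardiomyocyte sheep lies above 0 and caps the mean in tissue, so within those bounds the states are free to differ. In cardiomyocytes 8 of the 13 genes had a larger mean difference in control sheep than in either paced state. This count was not made over all genes, so nothing is read from it. The change of the difference from control had a median over the 13 genes of -0.11 in chronic and -0.24 in transition sheep, beside 0.02 and -0.0028 over all genes; the 3 control sheep are shared by both comparisons. These shifts rested on control sheep S4: without it the chronic median turned to 0.09 and the transition median was -0.01, and without chronic sheep D16 the chronic median was 0.08. In limma's interaction test, with Benjamini-Hochberg adjustment over all genes, 0 of the 13 passed in chronic sheep, beside 0.358% of all genes, and 0 passed in transition sheep, beside 0% of all genes. At an unadjusted p under 0.05 there were 2 of 13 in each, where all genes gave 14.2% and 6.36%. Voom weights on the recovered reads also gave 0 in both.

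The gene with the widest such change was ENSOARG00000002951. Its cardiomyocyte left minus right difference was 2.13, 1.40 and 1.79 in the control sheep C1, S3 and S4, 0.24, 1.33 and 0.22 in transition sheep D23, D24 and D27, and 0.66, 0.09 and 0.46 in chronic sheep D16, D19 and D20. Every control sheep lay above every paced sheep, though D24 came close to S3. How many of all genes were separated in this way was not counted, so nothing is read from it. The interaction was -1.37 ± 0.39 (SE) for chronic against control sheep (limma, adjusted p = 0.133) and -1.17 ± 0.39 for transition against control sheep (adjusted p = 0.749), so neither passed the threshold.

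ENSOARG00000009728, named here also for its change in the posterior left atrium, had the same order of values. Its cardiomyocyte differences were 1.14, 1.11 and 1.36 in the control sheep, 0.62, 0.12 and 0.35 in the transition sheep and 0.41, 0.32 and 0.67 in the chronic sheep, in the order of sheep given above. The control sheep were again apart from the 6 paced sheep, a separation not counted over all genes, and the gene did not pass the test.

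**Figure D3:**
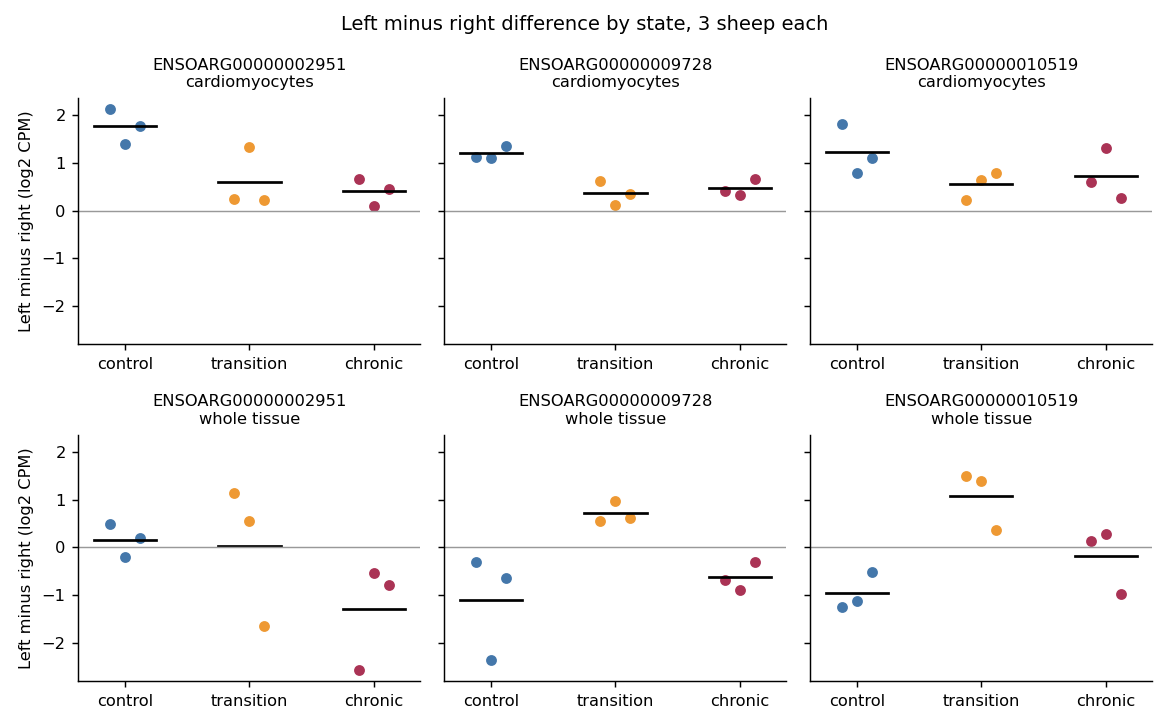
Left minus right difference (log2 CPM, y axis) in control, transition and chronic sheep for genes described in the text, in cardiomyocytes (upper row) and whole tissue (lower row); points are sheep and bars are means of 3 sheep. For ENSOARG00000002951 in cardiomyocytes the 3 control sheep lie between 1.40 and 2.13 and the 6 paced sheep between 0.09 and 1.33.

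In whole tissue the difference between the sides also passed no test by state. The change from control had a median of -0.0016 in chronic and -0.14 in transition sheep, beside -0.02 and -0.02 over all genes. Of the 13 genes 0 passed limma's interaction test in chronic sheep, beside 0% of all genes, and 0 in transition sheep, beside 0.0243%. The counts at an unadjusted p under 0.05 were 2 and 4 of 13, where all genes gave 6.61% and 7.50%, and voom gave 0 in both.

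The widest change in tissue was that of ENSOARG00000010519, a gene described because of these values and not by the naming rule. It was lower on the left in all 3 control sheep, by differences of -1.24, -1.13 and -0.51 in C1, S3 and S4. It was higher on the left in all 3 transition sheep, by 1.51, 1.38 and 0.37 in D24, D27 and D30. In chronic sheep D15, D16 and D19 it was 0.14, 0.28 and -0.98. The interaction for transition against control sheep was 2.05 ± 0.40 (SE, limma, adjusted p = 0.118), which missed the threshold. It passed in 1 of the 9 fits that left out a sheep, the one without transition sheep D30 (adjusted p = 0.0356). D30 had the smallest transition difference, so leaving it out was bound to widen the interaction. Over these 9 fits the adjusted p-value rose to 0.575. Of 8 other settings 1 called it, that with sample quality weights (adjusted p = 0.0196). ENSOARG00000009728 had the same direction in tissue, with -0.31, -2.37 and -0.64 in the control sheep and 0.56, 0.98 and 0.62 in the transition sheep. Its interaction was 1.83 ± 0.46 (SE; limma, adjusted p = 0.231), and 1.20 without control sheep S3 (adjusted p = 0.387). The chronic sheep, at -0.69, -0.90 and -0.30, were below 0 like the controls.

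The levels of the 13 genes themselves were compared between the chronic and transition states, which the rule did not use. In cardiomyocytes the chronic minus transition change had a median of -0.19 on the left and -0.26 on the right, beside 0.0079 and -0.03 over all genes. In tissue the medians were -0.02 and -0.04. In limma's test 0 of the 13 passed in left cardiomyocytes and 0 in right cardiomyocytes, beside 0.00814% of all genes in each, and 0 passed in left tissue and 0 in right tissue, beside 0% of all genes in each. At an unadjusted p under 0.05 there were 0 and 3 of 13 in left and right cardiomyocytes, where all genes gave 7.04% and 8.94%, and 0 and 2 in left and right tissue, where all genes gave 11.0% and 6.06%. Voom also gave 0 in all 4. Right tissue had 1 call with sample quality weights, that of ENSOARG00000010519.

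The change with pacing against control sheep was bounded by the rule and is described only. Averaged over both sides it ran from -0.57 to 0.21 in cardiomyocytes, below 0 in 11 of 13 genes, and from -0.69 to 0.69 in tissue, above 0 in 8 of 13. The signs were not counted over all genes. Split by side and state, limma's threshold was passed in left cardiomyocytes of transition sheep by 1 of the 13 genes, ENSOARG00000002951, which was lower there, beside 3.40% of all genes. In left tissue ENSOARG00000010519 was higher in both paced states and was the 1 gene to pass in transition sheep, beside 1.49% of all genes, and in chronic sheep, beside 7.49%. In the other comparisons with control sheep limma called 0 of the 13. The adjusted share of all genes called was 0.652% in right cardiomyocytes of transition sheep, 5.16% in those of chronic sheep and 7.64% in left cardiomyocytes of chronic sheep, and 0.624% and 1.26% in right tissue of transition and chronic sheep. At an unadjusted p under 0.05 the same 5 comparisons had 0, 1, 4, 4 and 2 of the 13, where all genes gave 13.4%, 21.4%, 23.7%, 15.2% and 15.9%. With voom weights the 2 calls in left tissue were lost and 1 arose in right tissue of transition sheep, while left cardiomyocytes of transition sheep had 1.

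The posterior left atrium, which the rule did not use, held more calls among the 13 genes than any of the 8 other tested comparisons. The same was so over all genes, of which 0% to 0.358% were called in those 8. It also had 6 sheep per state, where the appendage tables had 3. All 13 were tested there, and 6 passed limma's threshold between transition and control sheep, 3 higher and 3 lower, that is 46.2% of them beside 17.5% of all genes (8.84% higher and 8.68% lower). At an unadjusted p under 0.05 there were 7 of 13, where all genes gave 31.2%. Of the 91 comparison genes 28 passed, or 30.8%. The median change over the 13 was -0.07, beside -0.0059 over all genes, with as many calls up as down. The count among the 13 was 3 to 5 when each of the 12 sheep was left out in turn, and 3 without D27, G32 or S4. D24, D27, S3, S4 and C1 were also among the sheep that chose the genes. All transition sheep with G numbers carry the word saline in their titles, and no control sheep does. What that word stands for is not stated, so among the sheep with G numbers it cannot be told apart from state.

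The largest increase was that of ENSOARG00000000606. Its level in the 6 control sheep had a lowest value of 4.03, a median of 4.64 and a highest value of 5.64 on the deposited log2 scale, and in the 6 transition sheep 5.71, 6.37 and 6.77. The groups did not overlap, a trait that was not counted over all genes. The gene rose by 1.60 ± 0.28 (SE) on the log2 scale, or 3.04-fold (limma, adjusted p = 0.00176), and was called whichever of the 12 sheep was left out. ENSOARG00000018285 rose by 0.72 ± 0.19 (SE; adjusted p = 0.0189), from 3.91, 4.16 and 4.89 in control sheep to 4.58, 5.03 and 5.34 in transition sheep, with overlap. Its call was lost without sheep G32 (adjusted p = 0.0562).

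The largest decrease was that of ENSOARG00000006730, whose level is low there. Its lowest, median and highest values were -0.35, 1.27 and 2.24 in control sheep and -3.46, -0.84 and 0.48 in transition sheep. The groups overlapped, and the spread was the widest of the 13 genes. It fell by 2.30 ± 0.69 (SE) on the log2 scale, to 0.203 of its control level (limma, adjusted p = 0.0337). With a pseudocount of 1 the change was -1.11, so its size depends on how low values are treated. Its mean over the table, 0.03, was just above the filter on low levels, so it was tested in 6 of the 12 fits that left out a sheep, and the call was lost in those without D27 (adjusted p = 0.0923) and G13 (adjusted p = 0.0516).

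ENSOARG00000009728 fell as well. Control sheep had 2.34, 3.04 and 3.18 as the lowest, median and highest values, and transition sheep 1.25, 1.84 and 2.61. The decrease was 1.09 ± 0.24 (SE) on the log2 scale, to 0.470 of the control level (change -1.09, limma, adjusted p = 0.00667), and it was called whichever of the 12 sheep was left out.

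The other 2 calls, named because the count is small, held less well. ENSOARG00000004444 rose by 0.41 ± 0.13 (SE; limma, adjusted p = 0.0414) and was called in 3 of the 12 fits that left out a sheep. ENSOARG00000010519 fell by 1.04 ± 0.31 (SE; limma, adjusted p = 0.0332) and was called in 4 of 12. Adjusted p-values over those fits ran from 0.0229 to 0.104 for the first and from 0.00851 to 0.0876 for the second.

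The posterior left atrium sheep came in 2 sets, one named with a G and the other with an S, C or D. The 6 called genes moved the same way in both sets. The fit that called them held both sets, which favours a shared direction, so this is given as a description. ENSOARG00000000606 differed by 1.79 in the G set (3 control and 4 transition sheep) and 1.34 in the other (3 and 2). ENSOARG00000018285 differed by 0.94 and 0.41, ENSOARG00000006730 by -2.21 and -2.43, and ENSOARG00000009728 by -0.85 and -1.44. Of the 7 genes that were not called, ENSOARG00000002951 had the largest change, -0.91 ± 0.44 (SE; limma, adjusted p = 0.178), and ENSOARG00000012075 and ENSOARG00000020825 had -0.12 ± 0.10 and 0.24 ± 0.13.

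**Figure D4:**
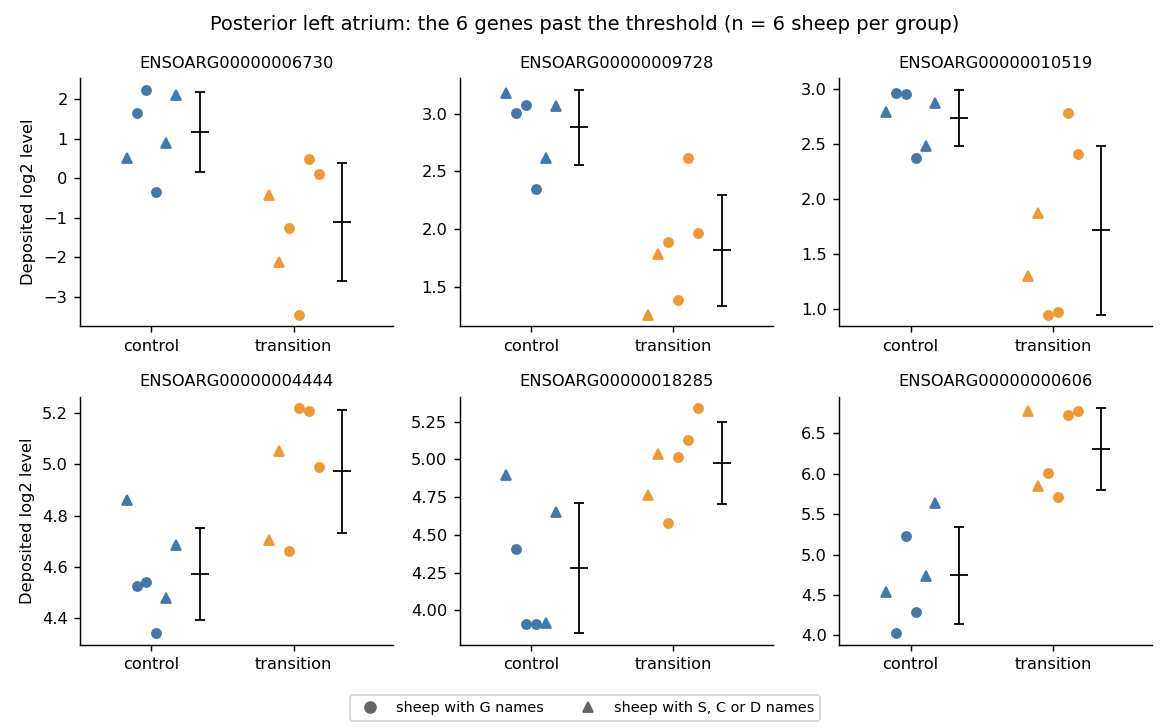
Deposited log2 level in the posterior left atrium (y axes, each with its own range) of the 6 called genes in 6 control and 6 transition sheep; points are sheep (circles, names with G; triangles, names with S, C or D), and the bars beside them are mean and SD. The transition sheep of ENSOARG00000000606 lie from 5.71 to 6.77, all above the control sheep, and the other called genes overlap between the states.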

How the data were processed

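The deposited tables hold log2 values, 1 column per sheep and region, in which the authors merged the technical replicates listed in the labels; 0 columns lacked a sample in the labels. Libraries were made with the Illumina NEBNext Ultra kit, per the labels, and bcl2fastq, cutadapt, RSEM and limma are named without versions, per the submitters' processing notes. For the aligner, genome build, annotation and use of strand, details were not given in the sources used, so genes that overlap or share reads with a near-identical copy are uncertain. All 476082 of 476082 appendage values came back as whole reads, within 0.05 reads, once 0.5 reads and the authors' library scaling were undone; in the posterior left atrium 10.1% of low values (below 30 reads if they were reads) did, where chance gives 10%, so no reads were recovered there.

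The deposited values were tested with limma (version 3.58.1, under R version 4.3.3, with its trend of variance on level), over all genes with a mean log2 level of at least 0, with Benjamini-Hochberg adjustment and a threshold of 0.05. The appendage models had 6 group means and the sheep as a random effect, since a sheep gave both sides by the names in the labels; the consensus correlation was 0.470 in cardiomyocytes and 0.294 in tissue. The posterior left atrium model had state and set of sheep. The log2 values were modelled as deposited and no count model was run, though whole reads were recovered for the appendages. Voom weights on recovered reads, other scalings, filters and pseudocounts, sample weights and sheep left out were alternatives. The code was tested on data simulated without a sheep effect, for left chronic against transition and for the posterior left atrium. The interactions and the pairing by sheep were not covered by that test. Tables were normalised separately and no test crosses them.

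The genes, lists and tests were chosen with earlier results of these data known. The naming rule took the 2 genes at the top of the cardiomyocyte difference and of the cardiomyocyte level, the 2 at each end of the tissue difference, and up to 2 called genes per direction in each tested comparison. Lists of gene symbols drawn up for marker genes and pathways had no use, since 0 IDs matched a symbol.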

Additional observations from a re-analysis of the deposited data

Results flagged for a closer look

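Among the 26 groups of 6 posterior left atrium sheep tested for a sample far from the others (13 genes in 2 states), 1 stood out. Transition sheep G13 had the lowest level of ENSOARG00000020045, 6.07 on the deposited log2 scale, and the next sheep had 6.42. Chance alone flags about 1 in 20 groups. This gene, described because of this value, was 0.38 ± 0.13 (SE) higher in transition than in control sheep and missed the threshold (limma, adjusted p = 0.0533). Of the 12 fits that left out a sheep 3 called it, those without G13 (adjusted p = 0.0212), C1 (0.0420) or G32 (0.0364). Over these 12 fits the adjusted p-value rose to 0.138. Sheep G13 was picked for its low transition value, so leaving it out was bound to raise the estimate. The gene passed with sample quality weights (0.0265) and with the set left out of the model (0.0456). It did not pass without the filter or with a pseudocount of 1.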

How the results depend on the processing

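The choice of the 13 genes depended on the settings. Scaling by library totals alone gave 8 genes, 4 of them among the 13, a cardiomyocyte minimum of 0.75 gave 3 and a tissue maximum of 0 gave 8. Median-of-ratios scaling, added after seeing the data, gave 12, all among the 13. Leaving out each sheep, also added then, gave 11 to 23. The 4 chronic against transition counts and the 4 interaction counts were 0 under each alternative run, except for 1 call each with sample quality weights in right tissue (chronic against transition) and in tissue (transition against control interaction); with each sheep left out the latter count was 0 to 1, with the 1 found without D30, and the other 7 stayed at 0. The pairing by sheep left these 8 counts at 0, both without the replicate block and, for interactions, with sheep as a fixed term. Without the block the comparisons bounded by the rule lost calls: left cardiomyocytes of transition against control sheep went from 1 to 0, and cardiomyocyte left against right from 13 to 7. In the posterior left atrium the count of 6 became 3 to 5 with each sheep left out, while over all genes it was 2109 and fell to as few as 1431 without G32. Depth limits the 6 genes of low level most, and the posterior values have no known depth.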
